A study of Homo sapiens with 15 samples.

Results

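Aminoacyl-tRNA synthetases are the enzymes that load each amino acid onto its tRNA, and their mRNAs were followed across 5 groups of human pancreatic ductal adenocarcinoma cells. The 35 genes were taken by symbol from the 25503 genes of the expression table: 19 cytosolic enzymes and 16 mitochondrial ones, whose symbols end in 2. The cytosolic enzymes were divided into 13 that are known targets of the transcription factor ATF4 and 6 others. All 35 were found, and all 35 passed the filter on low values in each comparison. RNA was sequenced from AsPC-1 cells given an siRNA against B4GALT5 (siB4GALT5) or against B3GNT3 (siB3GNT3), from Capan-1 cells given siB3GNT3, and from cells of both lines given a control siRNA (siNC), with 3 libraries in each group. The labels name no other allele, drug or time, spell the second line as Capan-1 in the titles and differently in one field, and leave unstated whether the 3 libraries were 3 cultures. The p-values below therefore measure the spread between these libraries. The study asks how B4GALT5, a galactosyltransferase of glycolipid synthesis, and B3GNT3, an N-acetylglucosaminyltransferase of O-glycans, affect MHC class I. The synthetases were measured in the same libraries.

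Human cells keep separate sets of synthetases for the ribosomes of the cytosol and for those of mitochondria, and nuclear genes encode both sets. GARS1 and KARS1, for glycine and lysine, serve both compartments from a single gene each. When amino acids run short or unfolded proteins build up, kinases of the integrated stress response phosphorylate eIF2 alpha, ATF4 is translated, and ATF4 raises the genes of many cytosolic synthetases together with those of amino acid synthesis and transport. ATF4 binds with C/EBP partners to a composite element often called CARE. WARS1, for tryptophan, is also a classical target of interferon gamma.

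The CARE letters TGATGNAA were searched on both strands in RefSeq promoter windows (GRCh38.p14, 250 bases before to 50 after an annotated start), which exist here for 30 of the 35 genes. The letters were present in 7 of 10 ATF4-responsive cytosolic genes (70%), in 0 of 6 other cytosolic genes and in 1 of 14 mitochondrial genes (7.14%), against 4.46% of all 27305 genes in the table. LARS1, VARS1, YARS1, AARS2 and VARS2 have no window in the table. The matches are printed because they describe the lists by sequence rather than by expression. The ATF4-responsive list was made of known ATF4 targets, so its share of matches is not an independent separation of the lists. Capitals mark the matched letters, and each run is 5′ to 3′ on the strand of its gene.
AARS1 (chr16:70289676-70289703, minus strand): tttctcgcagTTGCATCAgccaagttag
CARS1 (chr11:3057408-3057435, minus strand): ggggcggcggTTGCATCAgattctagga
GARS1 (chr7:30594835-30594862, plus strand): tacgcggcgaTTTCATCAtgctccgagc
IARS1 (chr9:92293693-92293720, minus strand): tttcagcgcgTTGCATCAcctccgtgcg
MARS1 (chr12:57488054-57488081, plus strand): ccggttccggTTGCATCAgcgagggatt
NARS1 (chr18:57621805-57621832, minus strand): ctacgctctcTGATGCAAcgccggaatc
TARS1 (chr5:33440957-33440984, plus strand): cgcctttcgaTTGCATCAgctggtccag
YARS2 (chr12:32756077-32756104, minus strand): tccacactgcTGATGGAAaaattaagtt
In the 7 cytosolic genes the match began between positions -187 and 15 relative to the annotated start, and in 6 of them it read TGATGCAA on one strand or the other. The interferon-stimulated response element, searched the same way as a repeat of GAAA after any 2 bases, was found in 1 of 10 ATF4-responsive genes, in 0 of 6 other cytosolic genes and in 1 of 14 mitochondrial genes (EARS2), against 4.38% of all genes. The cytosolic match was that of WARS1, at position -55.
WARS1 (chr14:100375383-100375412, minus strand): tttcagaaggGAAACTGAAAgaaagagggg
A match is a description of these letters and not evidence that a factor binds there.

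The measurements were FPKM, a fragment count scaled to transcript length and to the size of the library, as the authors deposited them. FPKM carry no read counts, so the depth is unknown; between 10339 and 11531 genes per library reached 1 FPKM. B4GALT5 was 8.70, 8.49 and 8.03 FPKM in the siB4GALT5 libraries, against 38.7, 35.8 and 35.5 FPKM in siNC. B3GNT3 was 2.53 and 2.504 FPKM in AsPC-1 siB3GNT3 replicates 1 and 2 and 1.32, 1.67 and 1.84 FPKM in Capan-1 siB3GNT3, against 22.5, 23.8 and 23.3 FPKM and 13.3, 13.2 and 13.7 FPKM in the siNC libraries of the 2 lines. The library labelled AsPC-1 siB3GNT3 replicate 3 had 24.2 FPKM of B3GNT3, which goes against its label. Over all genes its root mean square log2 distance was 0.141 to 0.150 to siNC and 0.475 to 0.488 to the other members of its group, and no synthetase in it differed from the siNC mean by more than 0.142 on the log2 scale. It was set apart and is called the doubted library below, and results that rest on the group are given with and without it. Epithelial markers summed to 1640 to 2077 FPKM in AsPC-1 and 2980 to 4932 FPKM in Capan-1. CDH1, 1 of the 5, was below 1 FPKM in every AsPC-1 library. The 3 ductal markers (MUC1, CEACAM6 and SOX9) summed to 17.0 to 32.4 FPKM in AsPC-1 and 81.6 to 100.2 FPKM in Capan-1. In AsPC-1, 2 of them reached 1 FPKM in every library and 1 was below it in every library. In Capan-1 all 3 reached it. At least 1 FPKM in every library was reached by 1 of 3 leukocyte (CD68), 0 of 3 endothelial, 1 of 4 fibroblast (LUM) and 0 of 3 acinar markers in AsPC-1, and by 1 of 3, 1 of 3, 2 of 4 and 0 of 3 in Capan-1. The mRNAs encoded by mitochondrial DNA took 18.1% to 19.5% of the summed FPKM with siB4GALT5 and 19.7% to 20.1% in siB3GNT3 replicates 1 and 2, against 23.8% to 24.8% in AsPC-1 siNC; their part in the results was not tested. In bulk libraries, fewer cells that express a gene and less RNA per cell cannot be told apart.

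Under siNC the cytosolic enzymes stood well above the mitochondrial ones. The 19 cytosolic genes summed to 1408 to 1420 FPKM per library in AsPC-1 and 1057 to 1076 FPKM in Capan-1, and the 16 mitochondrial genes to 201 to 203 FPKM and 159 to 161 FPKM. In AsPC-1 the order ran from AARS1, the alanine enzyme, at 133.9 ± 1.50 FPKM and KARS1 at 125.0 ± 4.05 FPKM down to WARS2, the mitochondrial tryptophan enzyme, at 2.30 ± 0.154 FPKM and FARS2, the mitochondrial phenylalanine enzyme, at 1.93 ± 0.0884 FPKM (mean ± SD, n = 3). In Capan-1 it was led by WARS1 at 110.8 ± 1.69 FPKM. The ranges of the 3 libraries overlapped in 14 of the 34 neighbouring pairs of that order in AsPC-1 and in 18 of 34 in Capan-1, so neighbours of that kind do not differ beyond their spread. IARS2, the mitochondrial isoleucine enzyme, was the most abundant of the 16 in both lines (65.1 ± 1.88 FPKM in AsPC-1 and 41.7 ± 0.612 FPKM in Capan-1) and exceeded several cytosolic genes. CARS1 and FARSB were the lowest cytosolic members, at 19.3 ± 0.255 and 11.1 ± 0.188 FPKM in AsPC-1.

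For the 13 amino acids with a separate enzyme in each compartment, the cytosolic mRNA was the higher one in all 13 pairs of both lines. The ratio of mean FPKM ran from 1.33 for isoleucine to 30.3 for tryptophan in AsPC-1, and from 1.11 to 23.8 for the same pairs in Capan-1. The alanine pair differed most between the lines, at 26.7 in AsPC-1 and 10.2 in Capan-1.

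**Figure D1:**
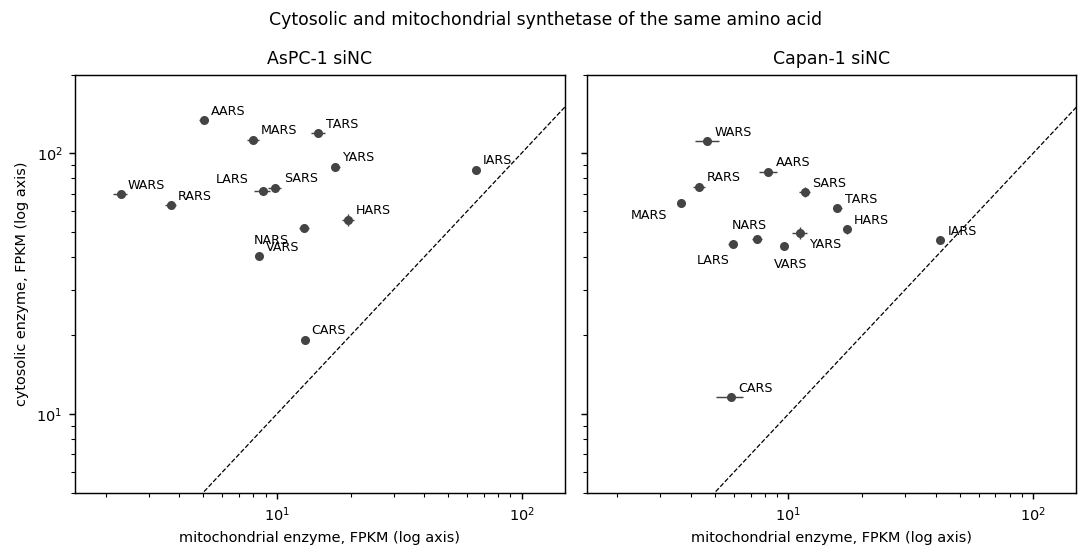
Mean FPKM of the cytosolic enzyme (vertical, log axis) against that of the mitochondrial enzyme (horizontal, log axis) for 13 amino acids in the siNC libraries of AsPC-1 and Capan-1, with bars for the SD over 3 libraries and a dashed line at equality. All 13 points lie above the line in both panels, with isoleucine nearest to it at ratios of 1.33 and 1.11.

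Compared with Capan-1, AsPC-1 carried more of most cytosolic synthetases under siNC, while WARS1, RARS1 and VARS1 were called lower. With limma, 9 of the 13 ATF4-responsive genes were higher in AsPC-1 and 2 were lower, 2 of 6 other cytosolic genes were higher and 1 lower, and 7 of 16 mitochondrial genes were higher and 5 lower, where 34.5% of the 12236 genes tested were higher and 43.6% lower. The median log2 difference of the ATF4-responsive list was 0.65, beside -0.088 over all genes; rescaling each library to a common sum moved the median of all genes to -0.23. TARS1, the threonine enzyme, averaged 119.5 ± 1.93 FPKM in AsPC-1 and 61.6 ± 1.33 FPKM in Capan-1 (log2 fold change 0.94, SE 0.11, adjusted p = 2.33e-06). IARS1 averaged 86.2 ± 1.05 and 46.5 ± 0.625 FPKM in AsPC-1 and Capan-1 (0.88, SE 0.07, adjusted p = 2.19e-08). WARS1 had 71.7, 68.8 and 68.6 FPKM in AsPC-1, against 108.9, 111.6 and 112.0 FPKM in Capan-1 (-0.66, SE 0.10, adjusted p = 1.85e-05), so that the lines did not overlap. RARS1 averaged 63.0 ± 1.13 and 74.4 ± 1.99 FPKM in AsPC-1 and Capan-1 (-0.24, adjusted p = 0.000539). Of the mitochondrial genes, CARS2 (1.04) and MARS2 (0.95) were furthest above Capan-1, and WARS2 (-0.78) and AARS2 (-0.62) furthest below it. A line and any batch it was prepared in cannot be told apart. VARS1, FARS2, RARS2, EARS2 and VARS2 lost their calls when at least 1 siNC library was left out; each of VARS1 and FARS2 did so without any of the 6, with adjusted p up to 0.12 and 0.151, RARS2 without AsPC-1 replicate 1 or 3 or Capan-1 replicate 2 or 3 (up to 0.12), EARS2 without AsPC-1 replicate 1 or 3 or Capan-1 replicate 1 or 2 (up to 0.0811), and VARS2 without AsPC-1 replicate 2 or Capan-1 replicate 1 (up to 0.0547).

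With siB4GALT5 in AsPC-1 a subset of cytosolic synthetases was higher than with siNC, with tryptophan, serine and alanine enzymes in front. Mitochondrial synthetases moved in both directions. Of the 13 ATF4-responsive genes 8 rose and 1 fell, of the 6 other cytosolic genes 2 rose and 1 fell, and of the 16 mitochondrial genes 2 rose and 4 fell (limma, Benjamini-Hochberg adjusted p under 0.05). Over all 10775 genes tested, 35.2% rose and 23.0% fell. The share of mitochondrial genes that rose was below that background and the share that fell was near it. The share of ATF4-responsive genes that rose was above it. The median log2 fold changes of the 3 lists were 0.24, 0.097 and -0.0028, beside 0.062 over all genes. The sum over the 19 cytosolic genes was 1828 to 1902 FPKM with siB4GALT5, against 1408 to 1420 FPKM with siNC.

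WARS1 had 186.9, 210.8 and 166.6 FPKM with siB4GALT5, against 71.7, 68.8 and 68.6 FPKM with siNC (log2 fold change 1.41, SE 0.08, adjusted p = 9.49e-07). SARS1, for serine, had 155.7, 161.6 and 134.5 FPKM, against 73.1, 75.6 and 72.3 FPKM in siNC (1.02, SE 0.07, adjusted p = 2.57e-06). Every siB4GALT5 library lay above every siNC library for both genes, and replicate 3 was the lowest of its group. AARS1 had 223.6, 232.6 and 213.0 FPKM with siB4GALT5, against 132.5, 135.5 and 133.8 FPKM with siNC (0.73, SE 0.05, adjusted p = 2.00e-06). MARS1, the methionine enzyme, averaged 177.7 ± 7.27 FPKM and 112.5 ± 2.97 FPKM in siB4GALT5 and siNC (SD, n = 3; 0.65, adjusted p = 4.23e-06). Smaller rises were those of CARS1 (0.41), GARS1 (0.35), YARS1 (0.24) and LARS1 (0.17). IARS1, for isoleucine, showed no such rise, with 82.3, 79.8 and 79.4 FPKM against 86.3, 85.1 and 87.2 FPKM in siNC (-0.10, adjusted p = 0.0654). EPRS1 (0.054), NARS1 (-0.080) and VARS1 (0.11) were not called either. TARS1 was called lower (-0.20, adjusted p = 0.0457) although its libraries overlapped those of siNC, and it lost the call without any one siNC library or without siB4GALT5 replicate 1 or 2, with adjusted p up to 0.156.

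Among the other cytosolic enzymes, KARS1, a subunit of the multi-synthetase complex that also serves mitochondria, had 180.8, 183.7 and 187.2 FPKM with siB4GALT5, against 121.3, 124.4 and 129.3 FPKM with siNC (0.55, SE 0.04, adjusted p = 6.36e-06). QARS1, the glutamine enzyme of the same complex, had 32.8, 32.9 and 31.2 FPKM, against 45.9, 45.4 and 48.6 FPKM in siNC (-0.51, SE 0.05, adjusted p = 3.90e-05). The groups did not overlap for either gene, so subunits of 1 complex lay on opposite sides of their controls. Of the 7 complex members measured, 3 rose, 1 fell and 3 were not called, which is near the 35.2% and 23.0% of all genes. FARSB, the beta subunit of the phenylalanine enzyme, was called higher (0.18, adjusted p = 0.0151) but not without siNC replicate 2 (adjusted p = 0.0565), and its partner FARSA was at 0.13 (adjusted p = 0.0624).

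Among the mitochondrial enzymes, IARS2 had 52.5, 51.5 and 53.2 FPKM with siB4GALT5, against 65.8, 62.9 and 66.4 FPKM with siNC (-0.31, SE 0.04, adjusted p = 0.000316). MARS2 (-0.35, adjusted p = 0.00398), RARS2 (-0.32, adjusted p = 0.00572) and CARS2 (-0.27, adjusted p = 0.0222) also fell. CARS2 lost its call without siNC replicate 1 or 3 or siB4GALT5 replicate 2 (adjusted p up to 0.0688). WARS2 rose with its cytosolic counterpart, at 3.78, 3.30 and 3.52 FPKM against 2.14, 2.44 and 2.32 FPKM in siNC (0.46, SE 0.07, adjusted p = 0.000586). YARS2 was called higher (0.18, adjusted p = 0.0493) but lost the call without any siNC library or without siB4GALT5 replicate 1 or 3 (adjusted p up to 0.152). Without any siNC library or without siB4GALT5 replicate 1, 1 mitochondrial gene was called higher in place of 2. LARS2 (0.022) and HARS2 (0.077), the leucine and histidine enzymes, stayed at 8.37 to 9.83 FPKM and 19.8 to 22.1 FPKM, overlapping siNC. Adding the doubted siB3GNT3 library to the fit, where it enters only the spread, lowered the cytosolic count called higher to 6 from 10. The mitochondrial count called lower went to 2 from 4. Over all genes the calls went to 4239 of 10804 from 6271 of 10775. WARS1, SARS1, AARS1, MARS1, CARS1 and KARS1 kept their calls.

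**Figure D2:**
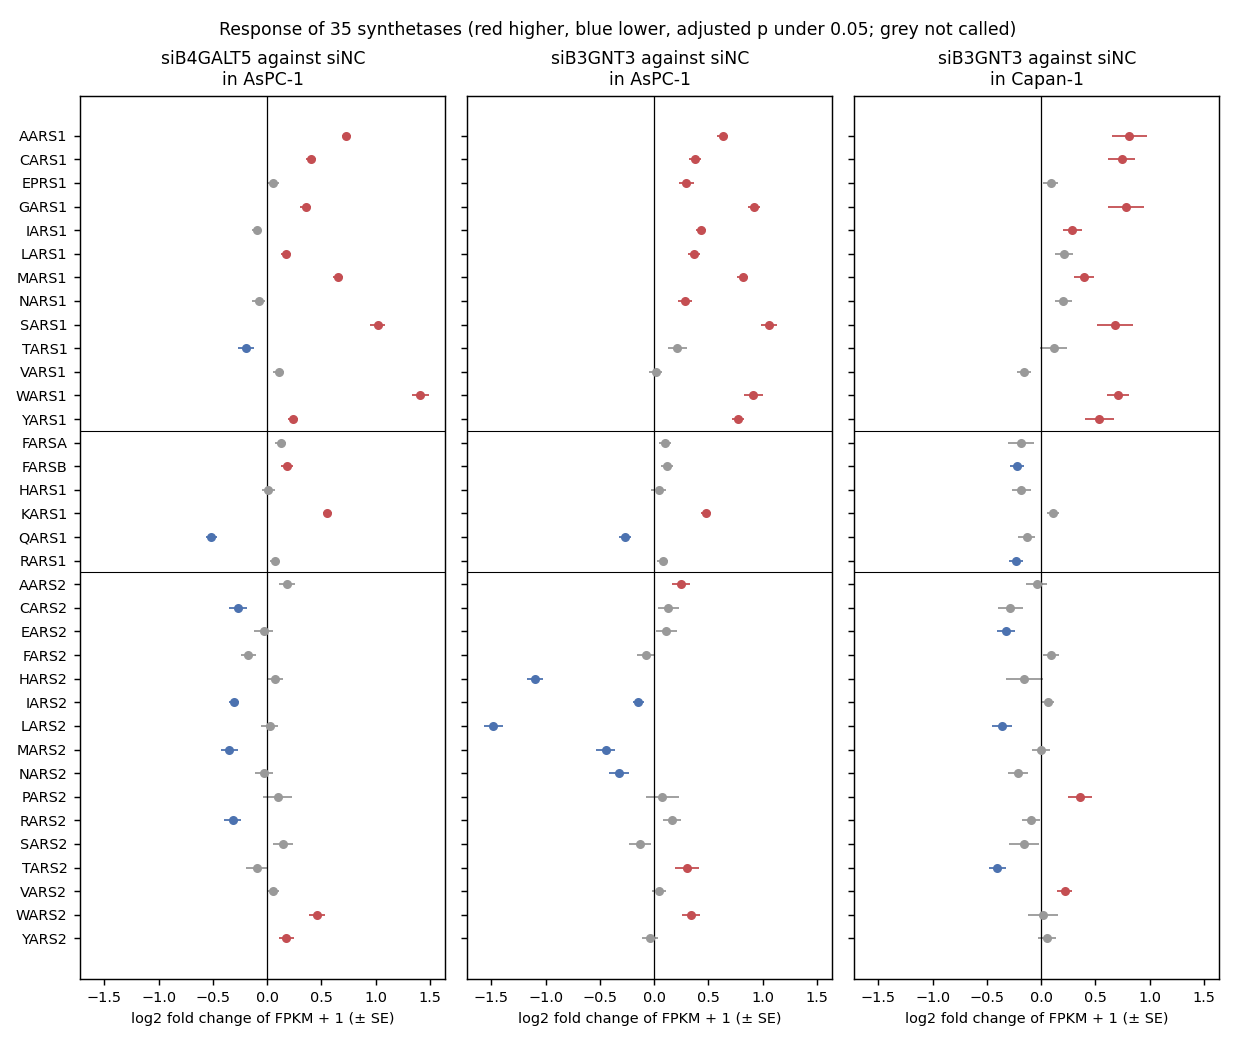
Log2 fold change of FPKM + 1 (horizontal, bars for the SE of limma) for the 35 synthetases, ordered by list from ATF4-responsive cytosolic at the top through other cytosolic to mitochondrial at the bottom, in siB4GALT5 and siB3GNT3 against siNC in AsPC-1 and siB3GNT3 against siNC in Capan-1. Red points were called higher, blue points lower and grey points neither; the top block leans to the right in each panel, and LARS2 and HARS2 stand furthest left in the middle panel at -1.48 and -1.10.

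With siB3GNT3 in AsPC-1, read from replicates 1 and 2, most ATF4-responsive synthetases were higher and the mitochondrial leucine and histidine enzymes lower than with siNC. Whether such changes came from loss of the target or from another effect of the siRNA was not tested for either siRNA. Of the 13 ATF4-responsive genes 11 rose and none had a negative fold change. Of the 6 others 1 rose and 1 fell, and of the 16 mitochondrial genes 3 rose and 5 fell. Over all 10775 genes 32.5% rose and 20.4% fell. The mitochondrial share that rose was below that of all genes and the share that fell was above it, with no difference tested. The medians of the lists were 0.43, 0.089 and 0.0028, beside 0.074 over all genes. The cytosolic sum was 2026 and 2019 FPKM in replicates 1 and 2 and 1414 FPKM in the library labelled replicate 3, against 1408 to 1420 FPKM in siNC. With that library in its labelled group, limma called 0 of 35 synthetases and 0 of 10804 genes (0.00%), with 3011 genes at an unadjusted p under 0.05, and the median of the ATF4-responsive list was 0.28. Since replicates 1 and 2 were kept for their level of the target, the p-values below describe those libraries.

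SARS1 had 155.2 and 152.9 FPKM in siB3GNT3 replicates 1 and 2 and 73.6 FPKM in the library labelled replicate 3, against 73.1, 75.6 and 72.3 FPKM in siNC (1.05, SE 0.07, adjusted p = 6.10e-06 without that library). GARS1 had 176.9, 166.6 and, in the doubted library, 90.3 FPKM, against 90.8, 88.8 and 90.9 FPKM in siNC (0.92, SE 0.05, adjusted p = 2.14e-06). YARS1, for tyrosine, had 154.4, 149.9 and, in the doubted library, 89.7 FPKM, against 90.7, 86.1 and 88.9 FPKM in siNC (0.77, SE 0.05, adjusted p = 5.18e-06). In all 3 genes the kept libraries lay far above siNC and the doubted one among the siNC libraries. WARS1 (0.91), MARS1 (0.81), AARS1 (0.63), IARS1 (0.43), CARS1 (0.38), LARS1 (0.37), EPRS1 (0.30) and NARS1 (0.29) rose as well. TARS1 (0.21, adjusted p = 0.0555) and VARS1, for valine (0.013, adjusted p = 0.869), were not called. KARS1 had 173.4 and 175.2 FPKM, against 121.3, 124.4 and 129.3 FPKM in siNC (0.48, adjusted p = 4.08e-05). QARS1 had 39.9 and 37.1 FPKM, against 45.9, 45.4 and 48.6 FPKM (-0.27, adjusted p = 0.00412), and missed the threshold without replicate 2 (adjusted p = 0.0509). Of the 7 multi-synthetase complex members 5 rose and 1 fell, beside 32.5% and 20.4% of all genes.

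LARS2 (chr3:45388576-45549407, GRCh38.p14) showed the largest change of the 35 in that comparison. It had 2.55 and 2.42 FPKM in siB3GNT3 replicates 1 and 2 and 9.40 FPKM in the doubted library, against 9.49, 8.47 and 8.28 FPKM in siNC (-1.48, SE 0.09, adjusted p = 2.53e-06). HARS2 (chr5:140691455-140699305) had 8.83 and 8.34 FPKM and, in the doubted library, 20.5 FPKM, against 19.4, 20.8 and 18.5 FPKM in siNC (-1.10, SE 0.07, adjusted p = 4.79e-06). Neither gene's kept libraries came near siNC, and both genes kept their calls when any single siNC or kept siB3GNT3 library was left out. HARS1, the cytosolic paralogue of HARS2, is transcribed the other way, with 84 bases lying between its start and that of HARS2. HARS1 had 55.3 and 59.0 FPKM, against 53.1, 54.8 and 58.5 FPKM in siNC (0.043, adjusted p = 0.62). MARS2 fell to 5.57 and 5.63 FPKM, against 8.18, 7.52 and 8.32 FPKM in siNC (-0.45, adjusted p = 0.00221). The sources used here do not say how reads shared by such paralogues were divided. Smaller calls were less stable. NARS2 (-0.32) lost its call without siNC replicate 2 or either kept siB3GNT3 library (adjusted p up to 0.0863), and IARS2 (-0.15) without siNC replicate 1 or 3 or either kept library (up to 0.122). WARS2 (0.34) lost it without siB3GNT3 replicate 1 (0.0558), AARS2 (0.25) without siNC replicate 1 or 3 or siB3GNT3 replicate 2 (up to 0.274), and TARS2 (0.30) without siNC replicate 1 or 2 or either kept library (up to 0.223). The count of mitochondrial genes called lower was 3 without siB3GNT3 replicate 1, in place of 5, and the count called higher was 1 without siNC replicate 1 or either kept library, in place of 3.

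**Figure D3:**
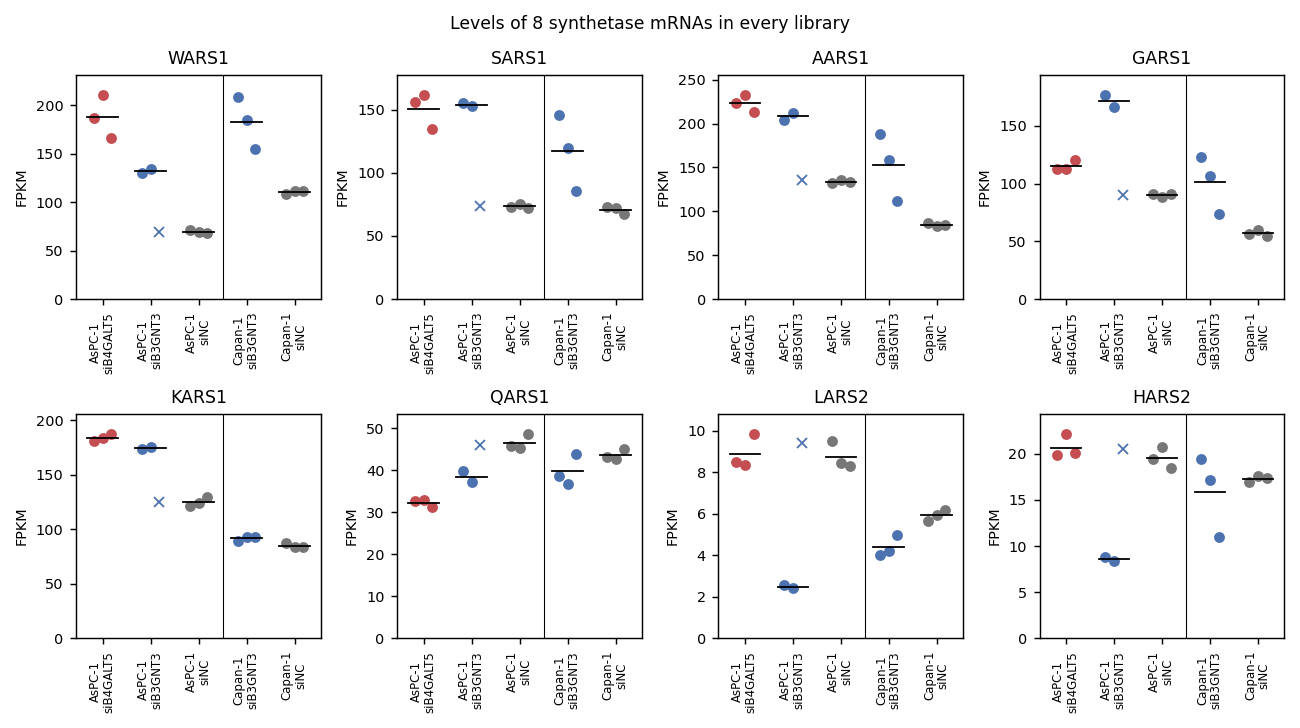
FPKM of 8 synthetases in every library (vertical, from 0), with siB4GALT5 in red, siB3GNT3 in blue, siNC in grey, bars at group means and a cross for the doubted AsPC-1 library, which is left out of the mean. The cross sits at the siNC level in each panel, for example at 73.6 FPKM for SARS1 and 9.40 FPKM for LARS2.

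In Capan-1, siB3GNT3 raised ATF4-responsive synthetases, led by AARS1, GARS1 and CARS1. Of the 13 listed genes 8 rose and 0 fell, of the 6 others 0 rose and 2 fell, and of the 16 mitochondrial genes 2 rose and 3 fell, where 18.7% of all 11493 genes rose and 14.2% fell. At an unadjusted p under 0.05, 1 ATF4-responsive gene fell (VARS1, -0.16, adjusted p = 0.0999) and 0 of the 6 others rose. The mitochondrial share that rose was somewhat below that of all genes and the share that fell somewhat above it, with no difference tested. The medians were 0.39, -0.185 and -0.066, beside 0.024 over all genes. The cytosolic sum was 1520, 1376 and 1182 FPKM with siB3GNT3, against 1057 to 1076 FPKM with siNC. Replicate 3 lay nearest to siNC in 11 of the 13 ATF4-responsive genes, with a list median of 0.22, against 0.58 and 0.38 in replicates 1 and 2, although B3GNT3 itself was 1.84 FPKM in it. Without replicate 3, 12 cytosolic genes were called higher, 5 cytosolic genes lower and 5 mitochondrial genes lower. Over all genes 5715 of 11338 were called in that fit, in place of 3786 of 11493.

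AARS1 had 188.2, 158.8 and 112.1 FPKM in Capan-1 with siB3GNT3, against 87.1, 82.7 and 84.8 FPKM with siNC (0.81, SE 0.16, adjusted p = 0.00771). GARS1 had 123.0, 106.9 and 73.5 FPKM, against 56.5, 59.7 and 55.1 FPKM in siNC (0.78, SE 0.16, adjusted p = 0.0092). WARS1 had 208.5, 184.9 and 155.0 FPKM, against 108.9, 111.6 and 112.0 FPKM in siNC (0.71, SE 0.10, adjusted p = 0.00191). Each gene's knockdown libraries lay above all controls, with a wide step between replicates 1 and 3. CARS1, for cysteine, averaged 20.3 ± 4.07 and 11.6 ± 0.229 FPKM with siB3GNT3 and siNC (0.74, SE 0.13, adjusted p = 0.00397). These 4 calls held when any single library was left out. SARS1 (0.68), YARS1 (0.54), MARS1 (0.39) and IARS1 (0.29) rose in the full fit and did not overlap siNC, but missed the threshold when certain single libraries were left out: SARS1 without any siNC library or siB3GNT3 replicate 2, YARS1 without siNC replicate 2 or 3 or siB3GNT3 replicate 2, MARS1 without siNC replicate 2 or 3, and IARS1 without any siNC library or siB3GNT3 replicate 1 or 2 (highest adjusted p 0.0605, 0.0632, 0.0583 and 0.113 in that order). The cytosolic count called higher was 4 without siNC replicate 2 or without siNC replicate 3, and 5 without siB3GNT3 replicate 2. Over all genes, 2083 of 11396, 2112 of 11398 and 2677 of 11343 were called in those fits, in place of 3786 of 11493.

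KARS1 had 89.6, 93.2 and 92.7 FPKM in Capan-1 with siB3GNT3, against 87.3, 83.5 and 84.0 FPKM with siNC (0.11, adjusted p = 0.159). QARS1 overlapped its controls (-0.13, adjusted p = 0.219). RARS1, the arginine enzyme, was called lower at 59.6, 64.8 and 65.5 FPKM, against 74.6, 72.4 and 76.3 FPKM in siNC (-0.23, adjusted p = 0.0247), and FARSB at 9.25, 9.57 and 9.45 FPKM, against 11.4, 11.3 and 10.8 FPKM (-0.22, adjusted p = 0.0305). Both groups were apart, yet RARS1 lost its call without any siNC library or siB3GNT3 replicate 1 (up to 0.108) and FARSB without any siNC library or siB3GNT3 replicate 1 or 2 (up to 0.118). TARS2, the mitochondrial threonine enzyme, fell to 10.6, 12.2 and 12.6 FPKM, against 16.6, 15.3 and 15.6 FPKM in siNC (-0.40, SE 0.08, adjusted p = 0.00814), and this held without any one library. LARS2 had 4.02, 4.19 and 5.00 FPKM, against 5.67, 5.93 and 6.16 FPKM in siNC (-0.36, SE 0.09, adjusted p = 0.0167), with the call lost without siNC replicate 2 or 3 or siB3GNT3 replicate 2 (up to 0.0716). HARS2 had 19.4, 17.1 and 10.98 FPKM, against 16.9, 17.6 and 17.4 FPKM in siNC (-0.16, adjusted p = 0.515), so that replicate 3 alone was low. EARS2 (-0.32), PARS2 (0.36) and VARS2 (0.22) were called, but EARS2 not without any siNC library or siB3GNT3 replicate 2 (up to 0.0729), PARS2 not without siNC replicate 2 or 3 or siB3GNT3 replicate 1 or 2 (up to 0.129), and VARS2 not without any siNC library or siB3GNT3 replicate 1 (up to 0.165). The mitochondrial count called lower was 1 without siNC replicate 2 or 3 or siB3GNT3 replicate 2, and the count called higher was 0 without siNC replicate 2 or 3 or siB3GNT3 replicate 1.

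**Figure D4:**
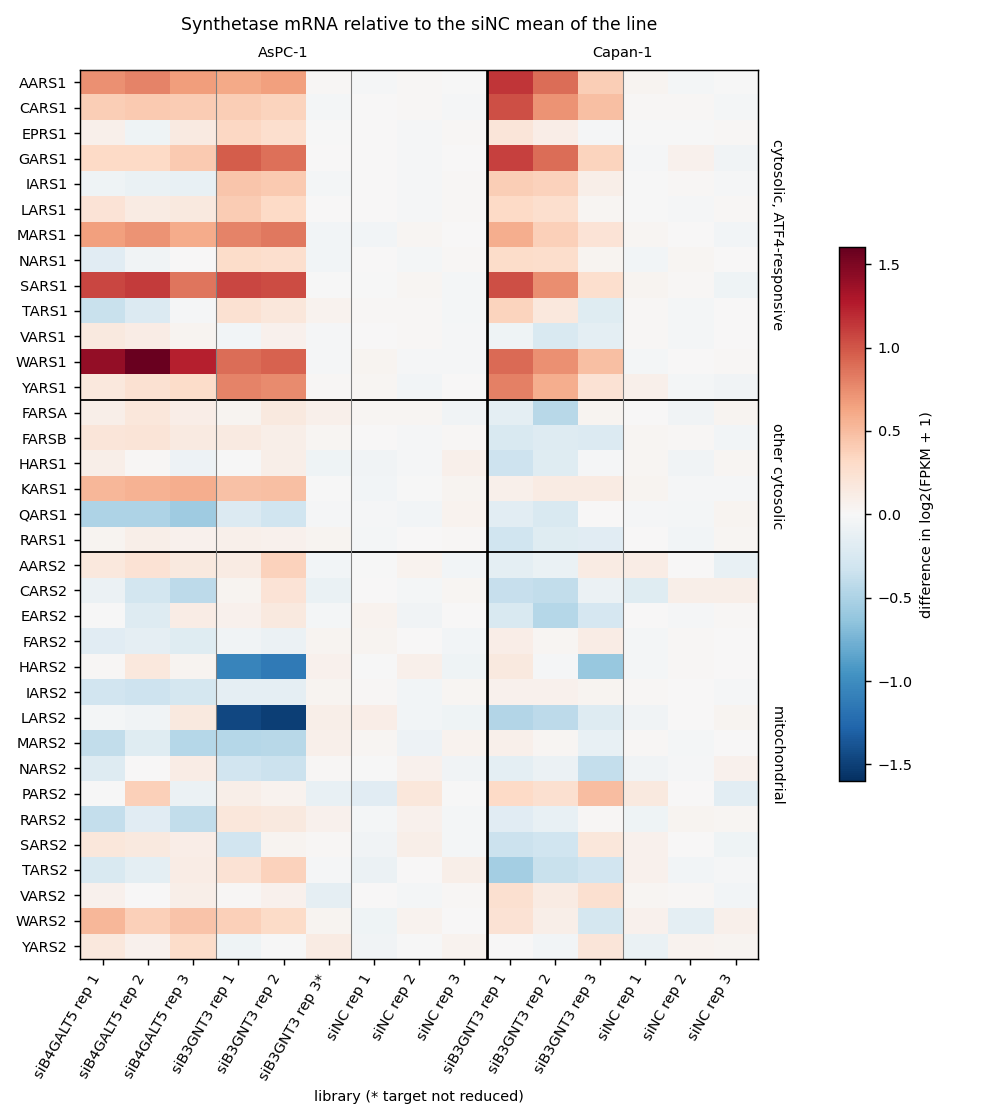
Difference of each synthetase from the siNC mean of its line on the log2(FPKM + 1) scale (colour, red above and blue below), with the 35 genes as rows in their 3 lists and the 15 libraries as columns. The AsPC-1 siB3GNT3 column with a star, whose target is not reduced, is near white throughout with no gene beyond 0.142, and Capan-1 siB3GNT3 replicate 3 is paler than replicates 1 and 2 in the ATF4-responsive block, with medians of 0.22, 0.58 and 0.38 for replicates 3, 1 and 2.

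The siB3GNT3 comparisons of the 2 lines share no library. Of the 15 synthetases called higher in AsPC-1 and the 10 called higher in Capan-1, 8 were the same genes, which is 53.3% of the AsPC-1 list and 80.0% of the Capan-1 list. Over the 10068 genes tested in both lines, 1052 were called higher in both, which is 32.1% of those called higher in AsPC-1 and 59.98% of those in Capan-1; no difference between these shares was tested. The 8 shared synthetases were AARS1, CARS1, GARS1, IARS1, MARS1, SARS1, WARS1 and YARS1, all ATF4-responsive. Of the 6 and 5 called lower in AsPC-1 and Capan-1, LARS2 was the 1 gene in both (16.7% and 20.0%), beside 28.0% and 38.4% for all genes called lower.

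The direct test of whether the response to siB3GNT3 differed between the lines (AsPC-1 minus Capan-1) called 1 of 13 ATF4-responsive genes higher and 0 lower, 3 of 6 other cytosolic genes higher, and 2 of 16 mitochondrial genes higher and 4 lower, where 19.0% of all 12236 genes were higher and 13.8% lower. At an unadjusted p under 0.05, 1 ATF4-responsive gene (CARS1) and 0 of the 6 others were lower. LARS2 had the most negative difference (-1.12, SE 0.13, adjusted p = 3.01e-05), with responses of -1.48 in AsPC-1 and -0.36 in Capan-1. HARS2 followed (-0.94, SE 0.21, adjusted p = 0.00404), with -1.10 in AsPC-1 and -0.16 in Capan-1. TARS2 had fold changes of opposite sign in the 2 lines, at 0.30 in AsPC-1 and -0.40 in Capan-1 (difference 0.71, SE 0.14, adjusted p = 0.00198). Its rise in AsPC-1 lost the call against siNC when certain single libraries were left out. KARS1 (0.37), FARSB (0.34) and RARS1 (0.31) responded higher in AsPC-1, as did MARS1 (0.42) and EARS2 (0.43), and MARS2 (-0.45) and IARS2 (-0.20) lower. For the other 12 ATF4-responsive genes the test of the difference missed the threshold, with estimates from -0.37 for CARS1 to 0.37 for SARS1, which does not show equal responses. EARS2 lost the call without AsPC-1 siB3GNT3 replicate 2 (adjusted p = 0.0874), and IARS2 without AsPC-1 siNC replicate 1 or 3, either kept AsPC-1 siB3GNT3 library or Capan-1 siNC replicate 2 or 3 (up to 0.0924). Without Capan-1 siB3GNT3 replicate 3 the count of differences was 17 in place of 10, and with the doubted AsPC-1 library it was 3. Over all genes the counts in those fits were 5036 of 12151 and 1204 of 12247, in place of 4009 of 12236.

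Within AsPC-1 the direct test of siB4GALT5 against siB3GNT3 replicates 1 and 2 called 1 of 13 ATF4-responsive genes higher and 8 lower, 0 of 6 other cytosolic genes higher and 1 lower, and 3 of 16 mitochondrial genes higher and 4 lower, where 17.8% of all 10775 genes were higher and 17.4% lower. None of the 6 other cytosolic genes was higher at an unadjusted p under 0.05 either. WARS1 was the gene that siB4GALT5 raised more, at 186.9, 210.8 and 166.6 FPKM against 129.8 and 134.7 FPKM with siB3GNT3 (0.50, SE 0.09, adjusted p = 0.00195). GARS1 had 113.1, 112.8 and 120.7 FPKM with siB4GALT5, against 176.9 and 166.6 FPKM with siB3GNT3 (-0.57, SE 0.05, adjusted p = 5.44e-05). YARS1 (-0.54) and IARS1 (-0.53) were lower by similar amounts, and TARS1 (-0.41) and NARS1 (-0.37) followed; none of these 6 genes had overlapping groups. LARS2 had 8.51, 8.37 and 9.83 FPKM with siB4GALT5, against 2.55 and 2.42 FPKM with siB3GNT3 (1.50, adjusted p = 4.22e-06), and HARS2 19.8, 22.1 and 20.1 FPKM, against 8.83 and 8.34 FPKM (1.18, adjusted p = 5.84e-06). RARS2 was 2.61, 3.12 and 2.57 FPKM with siB4GALT5 and 4.296 and 4.20 FPKM with siB3GNT3 (-0.48, adjusted p = 0.00236). SARS1 (-0.037), CARS1 (0.029), AARS1 (0.098) and KARS1 (0.077) were not called apart. With the doubted library, 4 synthetases were called in place of 17. Over all genes 1716 of 10804 were called in that fit, in place of 3789 of 10775. Calls that depended on single libraries were CARS2 (-0.40, lost without siB3GNT3 replicate 2, adjusted p = 0.103), QARS1 (-0.25, lost without siB3GNT3 replicate 1, 0.105), LARS1 (-0.20, lost without siB3GNT3 replicate 1, 0.149), EPRS1 (-0.24, lost without either, up to 0.124), TARS2 (-0.40, lost without either or siB4GALT5 replicate 1, up to 0.137), MARS1 (-0.16, lost without either or siB4GALT5 replicate 1, up to 0.204), NARS2 (0.30, lost without either or siB4GALT5 replicate 2, up to 0.155) and IARS2 (-0.16, lost without either or siB4GALT5 replicate 1 or 2, up to 0.137).

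Other genes of the same pathways were counted from lists of 20 ATF4 pathway genes, 12 tRNA partners, 20 genes of mitochondrial translation and 9 interferon gamma targets. ATF4 itself had 84.2, 94.3 and 80.2 FPKM with siB4GALT5, against 40.3, 41.4 and 39.6 FPKM with siNC (1.07, adjusted p = 1.67e-06), and 81.0 and 86.8 FPKM with siB3GNT3 (1.03, adjusted p = 5.70e-06). In Capan-1 it had 58.3, 55.7 and 57.0 FPKM with siB3GNT3, against 46.6, 44.4 and 45.6 FPKM with siNC (0.32, adjusted p = 0.00548). The ATF4 pathway list had 13 of 17 tested genes higher and 1 lower with siB4GALT5, 15 of 17 higher and 0 lower with siB3GNT3 in AsPC-1, and 14 of 19 higher and 0 lower in Capan-1, with median log2 fold changes of 0.75, 0.99 and 0.91; at an unadjusted p under 0.05 the counts of 0 were also 0. Over all genes 35.2%, 32.5% and 18.7% were higher and 23.0%, 20.4% and 14.2% lower in the same order. Both AsPC-1 comparisons share their siNC libraries. TRIB3, a pseudokinase induced by ATF4 and DDIT3, rose by 2.62, 2.45 and 1.89 in those comparisons. In Capan-1 TRIB3 had 86.0, 43.5 and 21.6 FPKM with siB3GNT3, against 11.3, 11.6 and 10.01 FPKM with siNC, so that replicate 3 was the lowest there too.

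XPOT, which exports tRNA from the nucleus, rose in each of the 3 comparisons, by 0.34, 0.49 and 0.67 in the same order. The tRNA partner list as a whole had 4 genes higher and 3 lower of 11 tested with siB4GALT5, 3 and 2 of 11 with siB3GNT3 in AsPC-1, and 1 and 2 of 9 in Capan-1. All genes had 35.2% higher and 23.0% lower, 32.5% and 20.4%, and 18.7% and 14.2% in these comparisons, so the tRNA partner counts with siB4GALT5 were near the background. The mitochondrial translation list had 2 higher and 5 lower of 20 with siB4GALT5, 3 and 4 with siB3GNT3 in AsPC-1, and 0 and 1 in Capan-1. Its counts called higher were below those shares of all genes in each comparison, and its counts called lower were near them in AsPC-1. TFAM packages mitochondrial DNA and takes part in its transcription. It had 6.33 and 6.17 FPKM in AsPC-1 siB3GNT3 replicates 1 and 2 and 16.9 FPKM in the doubted library. In AsPC-1 siNC it had 16.5 to 18.1 FPKM (-1.36, adjusted p = 5.73e-06). Interferon gamma targets had 2 of 4 tested genes higher in each AsPC-1 comparison and 4 of 5 higher in Capan-1, with 0 lower at an adjusted or an unadjusted p under 0.05; with 4 genes tested, the AsPC-1 counts are not far from the 35.2% and 32.5% of all genes. WARS1, itself an interferon gamma target, was the synthetase with the largest rise with siB4GALT5 (1.41). Whether interferon signalling or ATF4 had a part in the level of WARS1 was not tested.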

How the data were processed

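Values were FPKM per gene and library in 1 table as the authors deposited it; per the submitters' processing notes, Bowtie2, RSEM 1.3.1, DESeq2 1.4.5 and GRCh38 were used, with no step assigned to each, and the sources used here name neither the annotation nor the counting settings. The depth is unknown, since FPKM hold no counts. Libraries were grouped by their labels. Differences were tested on log2(FPKM + 1), which understates changes of low genes, by limma (3.58.1, R 4.3.3) with its variance trend, keeping genes at 1 FPKM or more in at least 3 libraries of the fit. Benjamini-Hochberg adjustment ran over all genes tested, and genes under 0.05 were called. The fits held 8 AsPC-1 libraries (without the library labelled siB3GNT3 replicate 3), 6 Capan-1 libraries, or all 14 for comparisons between lines; the spread is pooled over the groups of a fit. The test was checked on simulated data in which every group had the spread of the siNC libraries. The wider spread of some knockdown groups was not covered by that check. Up to 4 genes per list with the smallest p, and genes that moved against their list, were described by library. Members and lists were chosen with earlier results of these data known. Alternatives were pseudocount 0.1, no filter, a filter of 5 FPKM, 2 other scalings, no trend, a replicate block, only the groups compared, the doubted library added, and each library left out. Promoter windows were from RefSeq. By the replicate numbers of the titles, same-numbered libraries of siB4GALT5 or Capan-1 siB3GNT3 and their siNC group deviated together with r of -0.036 to 0.060. The labels name no shared batch. Library names carry partly different numbers, by which pairing was not examined, so the main fits used no pairing and pairing is not excluded. Scans and figures used Python 3.11.15 with pandas 2.3.3 and matplotlib 3.10.9. One result is not reported here.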

Additional observations from a re-analysis of the deposited data

Results flagged for a closer look

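The response to siB3GNT3 differed between AsPC-1 and Capan-1 by the test of the difference itself (limma, AsPC-1 minus Capan-1, log2 scale, adjusted p under 0.05) for 10 synthetases. It was higher in AsPC-1 for TARS2 (0.71), EARS2 (0.43), MARS1 (0.42), KARS1 (0.37), FARSB (0.34) and RARS1 (0.31). It was lower in AsPC-1 for LARS2 (-1.12), HARS2 (-0.94), MARS2 (-0.45) and IARS2 (-0.20). Over all 12236 genes tested, 19.0% were higher and 13.8% lower, so the shares of the 35 synthetases were near those of all genes. EARS2 and IARS2 lost the call in fits with a single library left out. A line and its batch cannot be told apart, and the AsPC-1 side of each value rests on 2 libraries.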

How the results depend on the processing

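Counts of called synthetases moved as follows, and the counts over all genes moved in the same fits. With a library left out, the all-gene count ran from 5366 to 6863 for siB4GALT5 against siNC (6271 in the main fit). In Capan-1 it ran from 2069 to 5715 (3786 in the main fit). For siB4GALT5 against siNC, cytosolic genes called higher (10) were 6 with the doubted library added and 9 to 12 when single libraries were left out. Cytosolic genes called lower (2) were 4 under median-ratio scaling, 1 under a common sum, without the trend, with the doubted library or with only the groups compared, and 1 to 2 with a library left out. Mitochondrial genes called higher (2) were 4 under a common sum, 1 without a filter, with a filter of 5 FPKM, under median-ratio scaling, without the trend or with the doubted library, and 1 to 2 with a library left out. Those called lower (4) were 2 with the doubted library and 3 to 5 with a library left out. For siB3GNT3 in AsPC-1 all counts were 0 with the doubted library in its labelled group. With a library left out, the 12 cytosolic genes called higher were 12, the 1 called lower was 0 to 1, the 3 mitochondrial genes called higher were 1 to 2 and the 5 called lower were 3 to 4; the 3 were 1 without a filter or under median-ratio scaling, and the 5 were 3 under a common sum. In Capan-1 with a library left out, the 8 cytosolic genes called higher were 4 to 12, the 2 called lower 0 to 5, the 2 mitochondrial genes called higher 0 to 2 and the 3 called lower 1 to 5. There the 2 cytosolic genes called lower were 1 under a common sum, and the 2 mitochondrial genes called higher were 0 without a filter and 1 with a filter of 5 FPKM or under median-ratio scaling. With the replicate block, Capan-1 had 0 cytosolic genes called lower and 0 mitochondrial genes called higher. AsPC-1 siB3GNT3 had 13 cytosolic genes called higher with that block. The block used the replicate numbers of the titles, and whether libraries pair by the numbers of their names was not examined. The direct comparison of knockdowns (17 called) gave 4 with the doubted library and 10 to 19 with a library left out, and MARS1 in it turned to 0.13 (adjusted p = 0.697) with the doubted library. The comparison of lines (26 called) gave 22 to 23 with a library left out, and the difference of responses (10 called) gave 3 with the doubted library and 8 to 17 with a library left out. Where a cause of these moves is not plain from fewer genes or libraries, the cause was not tested. FPKM give no depth, so no floor or counting interval can be set for the low mitochondrial genes.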

Other observations

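HARS2 and TFAM were low in the same libraries. In Capan-1 siB3GNT3 replicate 3 HARS2 was 10.98 FPKM and TFAM 6.71 FPKM, against 16.9 to 17.6 FPKM and 14.5 to 15.7 FPKM in siNC, while replicates 1 and 2 had 19.4 and 17.1 FPKM of HARS2 and 14.5 and 14.9 FPKM of TFAM. In AsPC-1 siB3GNT3 replicates 1 and 2, HARS2 was 8.83 and 8.34 FPKM and TFAM 6.33 and 6.17 FPKM. These genes were set side by side after their values had been seen, and the siRNA sequences used for each library are not given in the sources used here.

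The synthetases fall into 2 structural classes by the fold of their catalytic domain. Of 18 class I genes, 7 rose and 5 fell with siB4GALT5, 7 rose and 4 fell with siB3GNT3 in AsPC-1, and 6 rose and 3 fell in Capan-1. Of 16 class II genes, 5 rose and 1 fell, 7 rose and 2 fell, and 4 rose and 2 fell in the same order; EPRS1, which joins a class I and a class II enzyme in 1 protein, is counted in neither. Over all genes 35.2% rose and 23.0% fell with siB4GALT5, 32.5% and 20.4% with siB3GNT3 in AsPC-1, and 18.7% and 14.2% in Capan-1. The class I counts with siB4GALT5 and the class II counts in Capan-1 were near those shares, and no difference between the classes was tested.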
